A study of Mus musculus with 2 samples.

Results

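Sox9, Sox5, Sox6, Runx3, Foxa2, Foxa3, Mef2c, and Nkx3-2 are 8 transcription factors of the cartilage lineage, and they were taken by gene symbol from the 32288 features counted in periosteal cells of mouse long bones. Their UMIs (unique molecular identifiers, 1 for each captured transcript) were followed in chondrocyte-like cells with little or much Col10a1, which encodes the collagen of hypertrophic cartilage, and in the other stromal and blood cells of the same libraries. The cells came from the femurs and tibias of C57BL6 mice of WT genotype at 4 weeks of age, whose loosely attached periosteum was digested with collagenase and sorted on CD45, CD31, Ter-119, and DAPI. There were 2 libraries, replicates 1 and 2 of this 1 condition, so cell classes were compared and not treatments. The number of mice behind a library was not given in the sources used here, and all p-values measure only the spread between these 2 libraries, which may be technical.

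Cartilage cells arise from mesenchymal progenitors in which SOX9 starts the chondrocyte programme, and SOX5 and SOX6, which lack an activation domain of their own, bind beside it at cartilage matrix genes. As chondrocytes mature they leave the cell cycle, swell, and switch from type II to type X collagen. RUNX proteins and MEF2C drive that hypertrophic step, FOXA2 and FOXA3 act in it together, and NKX3-2 holds it back. Several of these proteins also have well-known work outside cartilage, SOX6 in red cell precursors, RUNX3 in T and NK cells, and MEF2C in muscle and B cells.

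The filters kept 6276 of 9932 barcodes in library 1 and 2893 of 3659 in library 2, with 92058894 and 30745895 UMIs and medians of 8164 and 6279 UMIs per cell. Of the 9169 cells, 7600 carried blood markers despite the sort, and 1569 were stromal, 445 of them in library 1 and 1124 in library 2. The libraries shared 8 barcodes as deposited and 7 after filtering. The WT label stood beside UMIs of reporter genes, with EGFP at 0 UMIs in library 1 and 6837 in library 2, where it reached 2378 CPM (counts per 1000000 UMIs) in the Col10a1-high chondrocytes and 261 CPM in the Col10a1-low ones. Chondrocyte-like cells numbered 352, in clusters led by Fxyd2, by Col10a1, and by Ddit4l. Of the 12 markers of their list, 11, 12, and 7 met the naming rule given below in these clusters. An unnamed cluster led by Msmp, in which 8 of the 12 did, was not counted among them and is described below. Of the 352 cells, 210 had Col10a1 at 1000 CPM or more within the cell and are called Col10a1-high. The other 142 are called Col10a1-low. The low cells numbered 30 in library 1 and 112 in library 2, with medians of 32338 and 29776 UMIs. The high cells numbered 81 and 129 and were shallower, with medians of 7975 and 11725 UMIs. They also had fewer genes detected, with medians of 1263 and 2384 against 4991.5 and 4567.5 in low cells. Values are given below as CPM for library 1 and then library 2, with exact 95% Poisson intervals that cover counting error only. Shares of cells with a UMI are also given as computed for every cell thinned to 1000 UMIs, which evens out UMIs per cell alone.

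In the GENCODE M21 annotation of GRCm38, all 8 are protein-coding genes. Sox9 (ENSMUSG00000000567) lies at chr11:112782224-112787760 on the plus strand, Runx3 (ENSMUSG00000070691) at chr4:135120652-135177990 on the plus strand, and Mef2c (ENSMUSG00000005583) at chr13:83504034-83667080 on the plus strand. On the minus strand are Sox5 (ENSMUSG00000041540) at chr6:143828425-144781977, Sox6 (ENSMUSG00000051910) at chr7:115470872-116038796, Foxa2 (ENSMUSG00000037025) at chr2:148042877-148046969, Foxa3 (ENSMUSG00000040891) at chr7:19013284-19023538, and Nkx3-2 (ENSMUSG00000049691) at chr5:41761483-41764501.

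Upstream sequences of 250 bases were read from RefSeq for GRCm38.p6 and searched on both strands for AACAAT (a SOX site), TGTGGT (a RUNX site), TGTTTAC (a forkhead site), and TATAAA, none of which overlap in these windows. Among 32851 such windows of all genes, 9.42% held AACAAT, 14.0% held TGTGGT, 3.17% held TGTTTAC, and 12.4% held TATAAA. Starts were listed for 7 of the 8 genes, 6 for Sox6, 3 each for Foxa2 and Mef2c, 2 for Runx3, and 1 each for Sox5, Foxa3, and Nkx3-2, and none for Sox9. The windows of 4 genes are shown 5′ to 3′ in the direction of transcription, with motif matches in capitals. Sox5 is shown because it is the member whose level passed the test between high and low cells, and its window held none of the motifs. It starts inside the annotated gene.
Sox5 (chr6:143947107-143947356, minus strand): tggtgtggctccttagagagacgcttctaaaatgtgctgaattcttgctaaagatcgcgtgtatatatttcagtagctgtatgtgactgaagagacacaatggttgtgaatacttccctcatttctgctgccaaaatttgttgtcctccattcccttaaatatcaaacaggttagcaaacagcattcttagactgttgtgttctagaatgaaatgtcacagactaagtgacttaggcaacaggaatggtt
The Foxa3 window is shown because nearly all Foxa3 UMIs lay in chondrocyte-like cells, and it held TATAAA 36 bases before the start.
Foxa3 (chr7:19023540-19023789, minus strand): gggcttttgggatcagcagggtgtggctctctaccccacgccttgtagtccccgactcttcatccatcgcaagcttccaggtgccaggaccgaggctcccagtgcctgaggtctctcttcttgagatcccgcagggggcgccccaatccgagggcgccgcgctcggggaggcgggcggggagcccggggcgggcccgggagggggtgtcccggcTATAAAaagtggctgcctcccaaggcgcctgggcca
The first Runx3 window held 2 matches to the RUNX motif on the opposite strand, read here as ACCACA, 134 and 126 bases before the start, and the second Runx3 window held no motif.
Runx3 (chr4:135120395-135120644, plus strand): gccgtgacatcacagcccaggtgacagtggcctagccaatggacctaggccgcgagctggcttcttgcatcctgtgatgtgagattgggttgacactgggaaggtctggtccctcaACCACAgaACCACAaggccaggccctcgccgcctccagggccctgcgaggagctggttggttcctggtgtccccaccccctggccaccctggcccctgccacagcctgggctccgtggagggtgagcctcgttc
Of the 6 Sox6 windows this one was chosen for its matches, a pair of SOX motifs in opposite orientation 236 and 225 bases before the start and 1 RUNX motif at 93 bases.
Sox6 (chr7:115824711-115824960, minus strand): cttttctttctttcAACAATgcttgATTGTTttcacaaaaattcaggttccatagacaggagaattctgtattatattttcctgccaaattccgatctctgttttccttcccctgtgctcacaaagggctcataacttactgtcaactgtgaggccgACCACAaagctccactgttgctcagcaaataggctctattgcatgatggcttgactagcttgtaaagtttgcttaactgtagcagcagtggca
A match is a string of letters and not a tested binding site.

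Sox9, the factor on which cartilage formation depends, was most abundant in Col10a1-low chondrocytes. It stood at 932 CPM in library 1 (871 to 997) and at 653 CPM in library 2 (625 to 681). In Col10a1-high chondrocytes it stood at 261 CPM (228 to 297) and 247 CPM (226 to 270). The 2 groups did not overlap, and the ratio of low to high cells was 3.57 (95% interval 3.08 to 4.16) within library 1 and 2.64 (2.39 to 2.92) within library 2. A Sox9 UMI was present in 29 of 30 and 108 of 112 low cells, against 13 of 81 and 52 of 129 high cells. Thinned to equal depth, the shares were 51.3% and 43.5% in low cells and 6.18% and 11.7% in high cells, in the same order. In B cell-like cells, which should lack the gene, 0.262% and 0.299% had a UMI, at median depths of 3849 and 4003 UMIs.

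Outside these cells, Sox9 was 41.3 and 26.9 CPM in periosteal fibroblast-like cells, 21.6 and 32.1 CPM in Lepr+ stromal-like cells, and 23.0 and 24.4 CPM in osteoblast-like cells. The libraries' values of neighbouring classes in this order overlapped, so they cannot be ranked. Sox9 had 0 UMIs in library 1 and 2 UMIs in library 2 in skeletal muscle-like cells. Tenocyte-like cells, 92 of them in library 2 and 2 in library 1, had 106 CPM (84.5 to 132) in library 2. Blood classes lay at or below 3.65 CPM.

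Sox5, a partner of SOX9, was 107 CPM (87.2 to 131) and 102 CPM (91.4 to 113) in low chondrocytes. It was 16.3 CPM (8.91 to 27.3) and 14.8 CPM (9.88 to 21.2) in high chondrocytes, 14 and 29 UMIs in all. The ratio of low to high cells was 6.58 (3.74 to 12.5) and 6.91 (4.72 to 10.5), the closest pair of library values among the members. Among the named classes tested, periosteal fibroblast-like cells held the second place with 44.1 and 29.6 CPM, above the high chondrocytes by 2.70 and 2.00 times. An unnamed cluster of library 2, described below, lay above them there. Sox5 was 4.98 and 8.02 CPM in Lepr+ stromal-like cells, 1.11 and 4.93 CPM in osteoblast-like cells, and at 0 UMIs in skeletal muscle-like cells of both libraries. Blood classes lay at or below 3.97 CPM of Sox5, with 3.68 and 1.19 CPM in B cell-like cells, 1.502 and 3.97 CPM in T/NK cell-like cells, and 0 UMIs in monocyte/macrophage-like cells.

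Sox6, which acts with SOX5, was 50.9 CPM (37.4 to 67.7) and 54.0 CPM (46.4 to 62.5) in low chondrocytes. In high chondrocytes it was 23.3 CPM (14.2 to 36.0) and 13.2 CPM (8.64 to 19.4). The ratio of low to high cells was 2.19 (1.27 to 3.90) and 4.08 (2.69 to 6.41). Sox6 reached 64.5 and 30.3 CPM in skeletal muscle-like cells, from 13 and 8 UMIs, a range that overlapped that of the low chondrocytes. Periosteal fibroblast-like cells had 0 UMIs in library 1 and 3.32 CPM in library 2. Lepr+ stromal-like cells (14.9 and 4.01 CPM) and osteoblast-like cells (12.98 and 5.21 CPM) lay lower than low chondrocytes, and their ranges overlapped each other.

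All 3 SOX genes were seen together in 22 of 30 low cells in library 1 (73.3%, exact 95% interval 54.1 to 87.7%) and in 73 of 112 in library 2 (65.2%, 55.6 to 73.9%). They were seen together in 4 of 81 high cells (4.94%, 1.36 to 12.2%) and 8 of 129 (6.20%, 2.72 to 11.9%). These shares were not thinned and move with depth. Osteoblast-like and Lepr+ stromal-like cells had no cell with all 3, and periosteal fibroblast-like cells had 2 of 326 in library 2 and 0 of 29 in library 1.

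**Figure D1:**
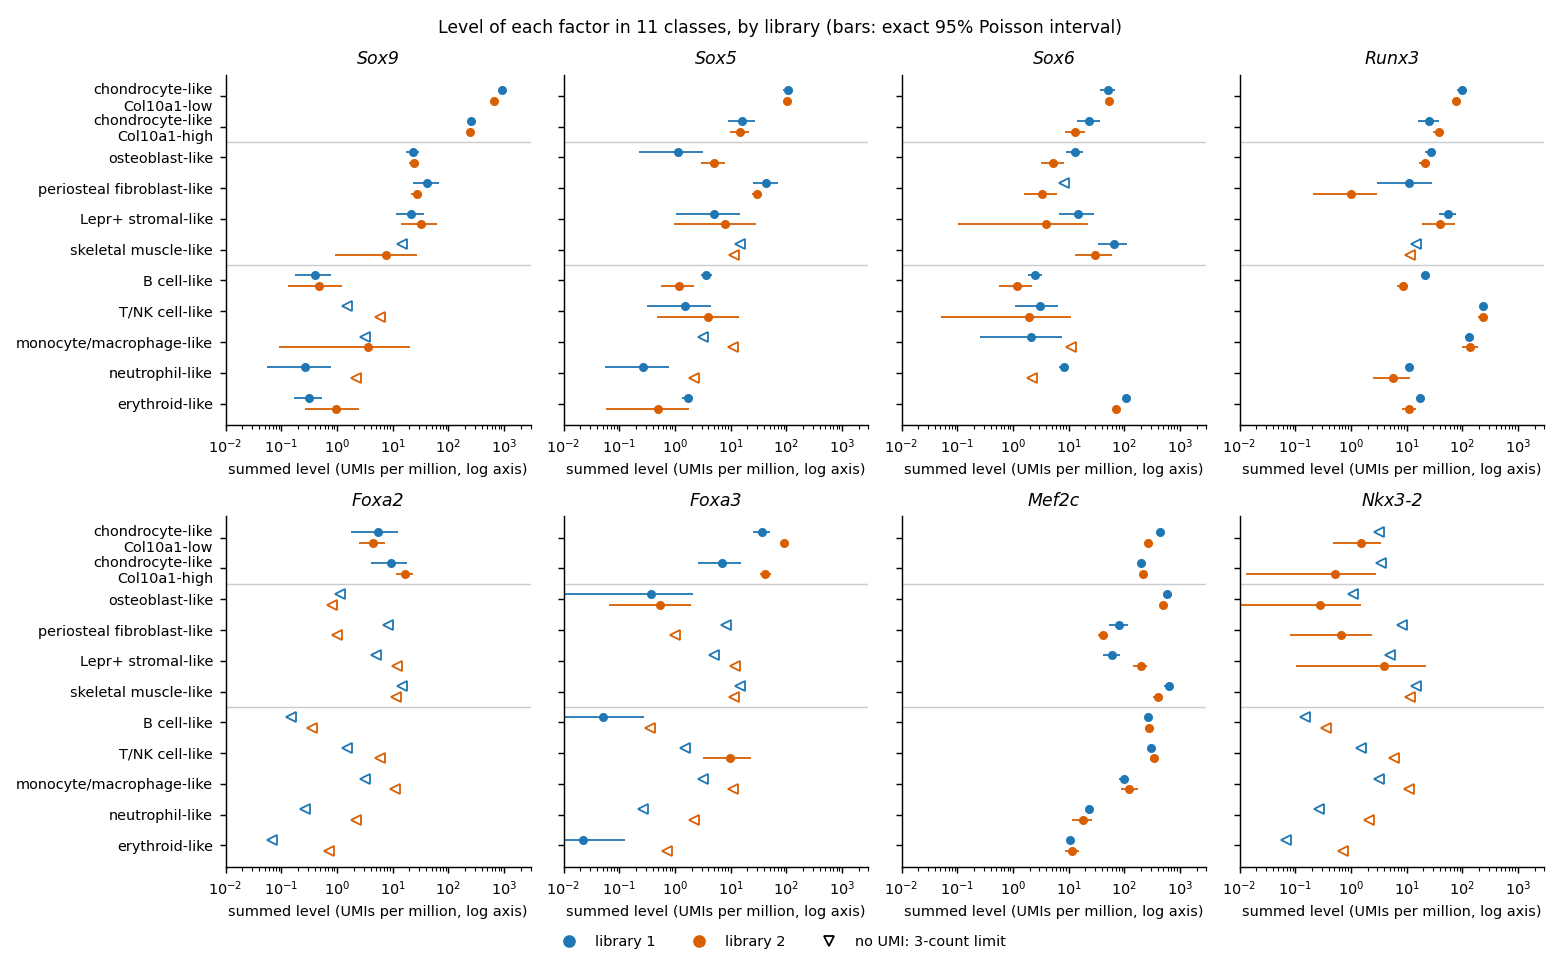
Level of each member in the named cell classes, as CPM on a log axis, with 1 point per library and exact 95% Poisson intervals. Sox9, Sox5, and Foxa3 were highest in Col10a1-low chondrocytes, Sox6 in erythroid-like cells, Runx3 in T/NK cell-like cells, and Mef2c in osteoblast-like and skeletal muscle-like cells.

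High and low chondrocytes were compared over UMI sums per library and class in an edgeR quasi-likelihood fit of 6 stromal classes, adjusting p-values across the 10216 genes tested (Benjamini-Hochberg). Sox5 was lower in high cells by this test, with a log2 difference of -2.69 (SE 0.54, adjusted p = 0.0254). The other 5 members tested had negative differences that did not pass. Sox9 was at -1.54 (SE 0.52, adjusted p = 0.115) and Mef2c at -0.65 (SE 0.50, adjusted p = 0.518), while Sox6, Runx3, and Foxa3 lay between -1.48 and -1.43 with adjusted p between 0.230 and 0.279. Thus 1 of 8 members was called, where 1.6% of all genes tested were called lower and 2.13% higher. Foxa2 and Nkx3-2 fell under the filter on low counts and were not tested.

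The Sox5 call was lost when the cells were clustered more coarsely, at resolution 0.4 (adjusted p = 0.0531). Sox9 passed with DESeq2 (adjusted p = 0.0056), and Foxa3 passed with library as a block (log2 difference -1.61, adjusted p = 0.0421). Foxa3 met the filter on low counts only with the sums of low cells, where it is higher. That call is thus not independent of the filter.

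Each chondrocyte group was also compared with the mean of the other 4 stromal classes in the same fit. In low chondrocytes 5 of 8 members were higher, namely Sox9, Sox5, Sox6, Runx3, and Foxa3, where 13.6% of all genes were called higher and 4.32% lower. Foxa3 met the filter on low counts through its chondrocyte sums alone, so the direction of its call was set in advance. Every other stromal class tested held at most 2 Foxa3 UMIs per library. The median log2 difference of all genes was 0.18 for low and 0.26 for high chondrocytes. Sox9 differed by 5.58 on the log2 scale (SE 0.38, adjusted p = 2.8e-06) and Sox6 by 2.39 (SE 0.49, adjusted p = 0.00485). The size for Sox9 leans on skeletal muscle-like cells, which had 0 and 2 Sox9 UMIs in libraries 1 and 2. Sox5 (adjusted p = 4.1e-05), Runx3 (adjusted p = 0.00055), and Foxa3 (adjusted p = 8.0e-05) each had at least 1 class at 0 UMIs in both libraries, so their fitted differences depend on the constant added to the counts and are given here only as calls. Mef2c stood at 0.79 (SE 0.37, adjusted p = 0.176), and it passed at 1.35 (adjusted p = 0.0294) when skeletal muscle-like cells were left out of the mean, a choice made after seeing the data.

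In high chondrocytes 4 of 8 members were higher than the mean of the other classes, where 14.8% of all genes were called higher and 4.94% lower. Sox9 differed by 4.04 (SE 0.38, adjusted p = 5.5e-05), and Sox5, Runx3, and Foxa3 were also called (adjusted p = 0.0189, 0.0156, and 0.00054). The filter on low counts set the direction of the Foxa3 call here too, and the size for Sox9 again leans on the few UMIs of skeletal muscle-like cells. Sox6 at 0.95 (SE 0.55, adjusted p = 0.261) and Mef2c at 0.14 (SE 0.39, adjusted p = 0.876) did not pass. Without skeletal muscle-like cells in the mean, Sox5 stood at 1.09 (adjusted p = 0.124) and Runx3 at 1.24 (adjusted p = 0.118), and neither was called. When stromal cells with UMIs of at least 3 blood marker genes were left out, the filter on low counts left 2 members, Sox9 at 2.85 (adjusted p = 0.0799) and Mef2c at -1.01 (adjusted p = 0.259), and neither was called by edgeR, 1 of them having an unadjusted p under 0.05. The low group could not be tested then, because 4 of its 30 cells remained in library 1. Periosteal fibroblast-like cells, with 4 cells left in that library, also dropped out of the mean.

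**Figure D2:**
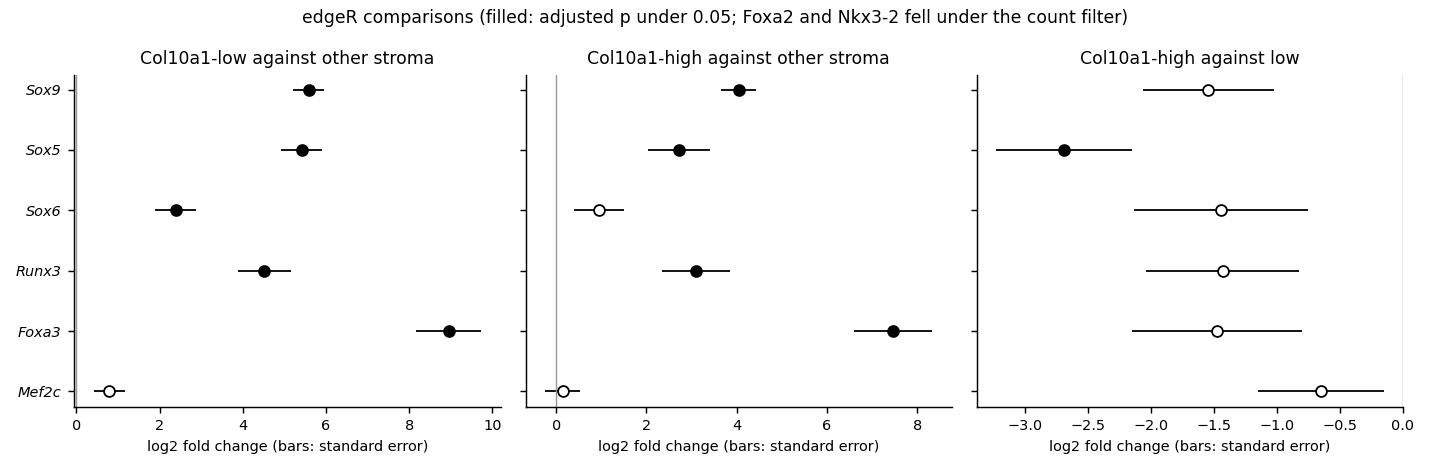
Fitted log2 differences of the members tested in the 3 stromal comparisons, with standard errors as bars. Filled points passed an adjusted p of 0.05. Against the other classes, the fitted values of Sox5, Runx3, and Foxa3 rest on classes with 0 UMIs and give a direction and a call but no size. For Foxa3 that direction was set by the filter on low counts, which it met through chondrocyte sums alone.

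Runx3, a RUNX protein that works beside RUNX2 in chondrocyte maturation, was 98.6 CPM (79.4 to 121) and 77.7 CPM (68.5 to 87.7) in low chondrocytes. In high chondrocytes it was 25.6 CPM (16.1 to 38.8) and 37.7 CPM (29.6 to 47.3). The low cells were 3.85 and 2.06 times higher. Lepr+ stromal-like cells stood between them with 56.4 and 40.1 CPM, and osteoblast-like cells (27.4 and 21.1 CPM) overlapped the high chondrocytes. Periosteal fibroblast-like cells had 11.02 and 0.997 CPM, from 4 and 3 UMIs, and skeletal muscle-like cells had none. Of all classes, low chondrocytes came next after T/NK cell-like and monocyte/macrophage-like cells.

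Foxa3, a forkhead factor of hypertrophic maturation, was 36.9 CPM (25.5 to 51.5) and 92.7 CPM (82.6 to 104) in low chondrocytes. It was 6.98 CPM (2.56 to 15.2) and 42.2 CPM (33.6 to 52.4) in high ones. The ranges of low and high cells overlapped across libraries, although the low cells were higher within each, by 5.28 and 2.19 times. Library 2 was higher than library 1 in both groups. Skeletal muscle-like, Lepr+ stromal-like, and periosteal fibroblast-like cells had 0 Foxa3 UMIs. Taking 3 UMIs per library as the floor, low chondrocytes had 4.46 and 92.9 times the level of periosteal fibroblast-like cells. These values are limits that depend on the UMIs of that class, 363117 and 3008528, and not measured ratios. The counting error of the low chondrocytes is not part of these ratios. Osteoblast-like cells had 1 and 2 UMIs, B cell-like and erythroid-like cells had 1 each in library 1, and T/NK cell-like cells had 5 UMIs, all in 1 cell of library 2.

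Foxa2, its close relative, was rare, with 67 UMIs in all kept cells. It stood at 5.42 CPM (1.76 to 12.6) and 4.50 CPM (2.52 to 7.42) in low chondrocytes and at 9.31 CPM (4.02 to 18.4) and 16.8 CPM (11.6 to 23.6) in high ones. The ratio of high to low cells was 1.72 (0.496 to 6.68) and 3.73 (1.97 to 7.398), and the interval in library 1 included equality. Foxa2 was thus the member with its larger values in high cells, and this is a description, since the filter kept it out of the test. Every other named class had 0 Foxa2 UMIs in both libraries, and the 6 UMIs left lay in an unnamed cluster led by Msmp and Prg4, described below. A floor of 3 UMIs per library was used for classes with none. On that floor, high cells had 8.37 and 20.4 times the osteoblast-like level in libraries 1 and 2. Against periosteal fibroblast-like cells the values were 1.13 and 16.8 times. The floor depends on the UMIs of the class, here 363117 and 3008528, so these values are limits and not measured ratios. The counting error of the high cells, with 8 UMIs in library 1, is not part of these ratios.

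Mef2c, which turns on Col10a1 and bone-forming genes in hypertrophic cells, was 441 CPM (399 to 486) and 264 CPM (247 to 282) in low chondrocytes. It was 204 CPM (175 to 236) and 218 CPM (198 to 240) in high ones, lower by 2.17 times in library 1 and by 1.21 times in library 2. In library 1, 1 cell held 82 of the 175 UMIs of the high cells. Osteoblast-like cells had more, 585 CPM (556 to 614) and 506 CPM (483 to 529). In skeletal muscle-like cells it was 625 and 401 CPM, overlapping both osteoblast-like cells and low chondrocytes. Lepr+ stromal-like cells differed widely between libraries, with 59.7 and 196 CPM, and periosteal fibroblast-like cells had 79.9 and 40.9 CPM.

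Nkx3-2, a repressor of maturation, was near the limit of detection with 11 UMIs in all kept cells. Of these, 5 lay in low chondrocytes and 1 in high chondrocytes, all in library 2. The others were 2 in periosteal fibroblast-like cells and 1 each in Lepr+ stromal-like cells, osteoblast-like cells, and an unnamed stromal cluster, again in library 2. In library 1 no low cell of 30 and no high cell of 81 had a UMI. A count of 0 then allows 3 cells, or a share with a UMI of up to 10.0% and 3.70% (exact two-sided 95% limits 11.6% and 4.45%), and it does not limit the share of cells that express the gene. Its level in chondrocytes of low and high Col10a1 could not be told apart at this depth.

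The 2 named stromal classes with fewer than 10 cells in library 1 entered no test. In library 2, the 92 tenocyte-like cells had 23.3 CPM of Sox5, 14.2 CPM of Sox6, 33.7 CPM of Mef2c, 1 UMI of Runx3, and none of Foxa2, Foxa3, or Nkx3-2, and the 2 cells of library 1 had 10 UMIs of Sox9 and none of the other members. Smooth muscle-like cells, 4 and 20 in number, had Mef2c at 758 and 280 CPM from 18 and 36 UMIs, Sox5 from 1 and 2 UMIs, and no UMI of the other 6 members.

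Levels of the members were also taken over 4 ranges of Col10a1. The middle ranges held few cells, 6 and 9 between 100 and 1000 CPM and 6 and 29 between 1000 and 10000 CPM. A point of change can thus not be set for any member. Median UMIs per cell were 32338 and 29431 in the lowest range and 7534 and 9757 in the uppermost. Sox9 was 962 and 657 CPM in cells under 100 Col10a1 CPM and 816 and 614 CPM between 100 and 1000 CPM. Between 1000 and 10000 CPM it was 1174 CPM in library 1, from 6 cells, and 320 CPM in library 2, from 29 cells. From 10000 CPM on it was 135 and 219 CPM. In library 1 the fall lay in the uppermost range alone. In library 2 the value from 1000 to 10000 CPM (275 to 371) lay between those of the range below it and the uppermost range (195 to 244). Its interval overlapped neither. These intervals leave out the spread between cells, and 20 of the 29 cells had a Sox9 UMI. Sox5 ran 121 and 105 CPM, 52.6 and 78.2 CPM, 76.98 and 30.6 CPM, and 7.95 and 8.52 CPM over the same ranges. Mef2c was 895 and 331 CPM between 1000 and 10000 Col10a1 CPM. In library 1 this was above both neighbouring ranges, but 82 of its 93 UMIs lay in 1 of the 6 cells. In library 2 it was not, and 402 CPM was found between 100 and 1000. Foxa2 in library 2 was 4.37, 5.58, 21.6, and 14.9 CPM from the lowest to the highest range, and in library 1 it was 5.46, 5.26, 9.62, and 9.27 CPM from at most 7 UMIs a range. Foxa3 was 92.4, 94.9, 117, and 12.8 CPM in library 2. Of its 65 UMIs between 1000 and 10000 CPM there, 23 lay in 1 of the 29 cells, and 12 of these cells had a UMI. In library 1 Foxa3 was 35.5 and 42.1 CPM below the cut and had 0 UMIs in 6 cells between 1000 and 10000 CPM. Above that it was 7.95 CPM, so the libraries differed here. Just 5 and 8 cells lay within a factor of 2 of the cut.

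**Figure D3:**
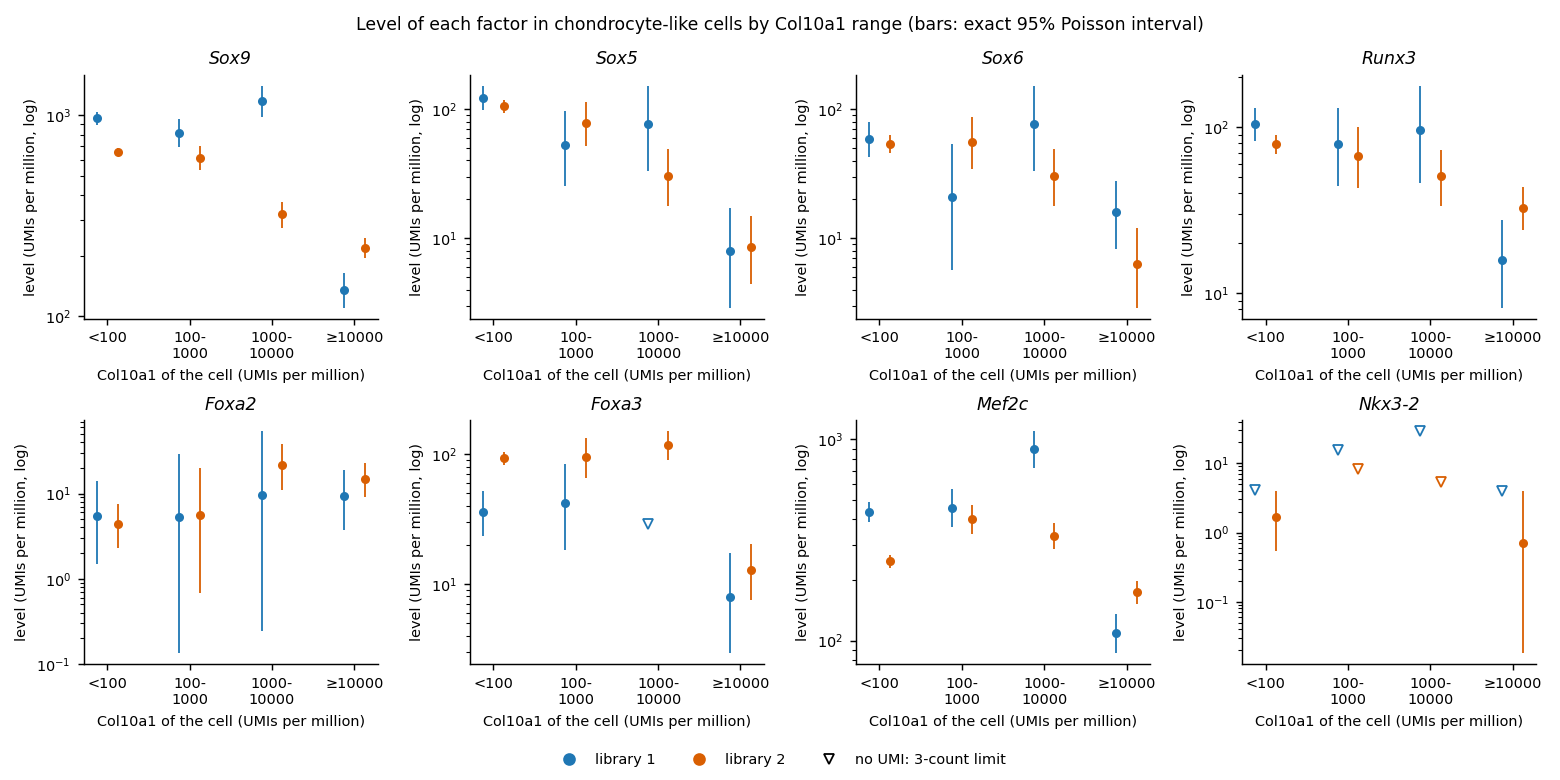
Level of each member, as CPM on a log axis, in chondrocyte-like cells of 4 Col10a1 ranges. Each library has 1 point per range, with exact 95% Poisson intervals. Sox9 and Sox5 were lowest in cells with at least 10000 Col10a1 CPM, and Foxa2 was at its highest in library 2 between 1000 and 10000 CPM.

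Col10a1-high cells fell into different clusters from most low cells, and the members differed among those clusters. These clusters were picked after their values were seen, so the values are a description. A cluster led by Col10a1, Mgp, and Rbp4 held 139 high cells, 66 in library 1 and 73 in library 2. A cluster led by Ddit4l held 58, and the cluster led by Fxyd2, Col9a3, and Cnmd, which holds most of the low cells, gave 13.

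Sox9 was 0 UMIs in library 1 and 14 UMIs (24.9 CPM, 13.6 to 41.7) in library 2 in the high cells of the Col10a1, Mgp, and Rbp4 cluster. In those of the Ddit4l cluster it was 433 CPM (361 to 515) and 298 CPM (267 to 332). The second was at least 69.4-fold higher in library 1 and 11.99 times (7.05 to 22.2) higher in library 2. In the high cells of the Fxyd2 cluster Sox9 was 1165 and 483 CPM. Runx3 followed the same order in the first and second clusters, with 2.08 and 5.33 CPM against 64.2 and 46.9 CPM. Sox5 had 0 UMIs in both libraries in the first and 16.9 and 9.01 CPM in the second. Foxa2 had 2.08 and 3.55 CPM in the first, from 1 and 2 UMIs, against 13.5 and 20.7 CPM in the second. Mef2c did not keep one order, with 22.9 and 142 CPM against 206 and 125 CPM.

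The clusters also differed in depth and in RNA of other kinds. High cells of the Col10a1, Mgp, and Rbp4 cluster had medians of 6056 and 6279 UMIs and Malat1, a nuclear RNA, at 555 and 4507 CPM. Those of the Ddit4l cluster had medians of 21816 and 25324 UMIs and Malat1 at 23795 and 15087 CPM. The summed level of the erythroid markers was 9064 and 174 CPM in all high cells and 1149 and 102 CPM in all low cells, with 9 and 8, and 9 and 7, of the 9 markers detected. Their part in the difference between high and low cells was not tested. With the Col10a1, Mgp, and Rbp4 cluster left out, another choice made after seeing the data, Sox5 was still lower in high cells (log2 difference -2.26, adjusted p = 0.0426), and no other member was called.

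**Figure D4:**
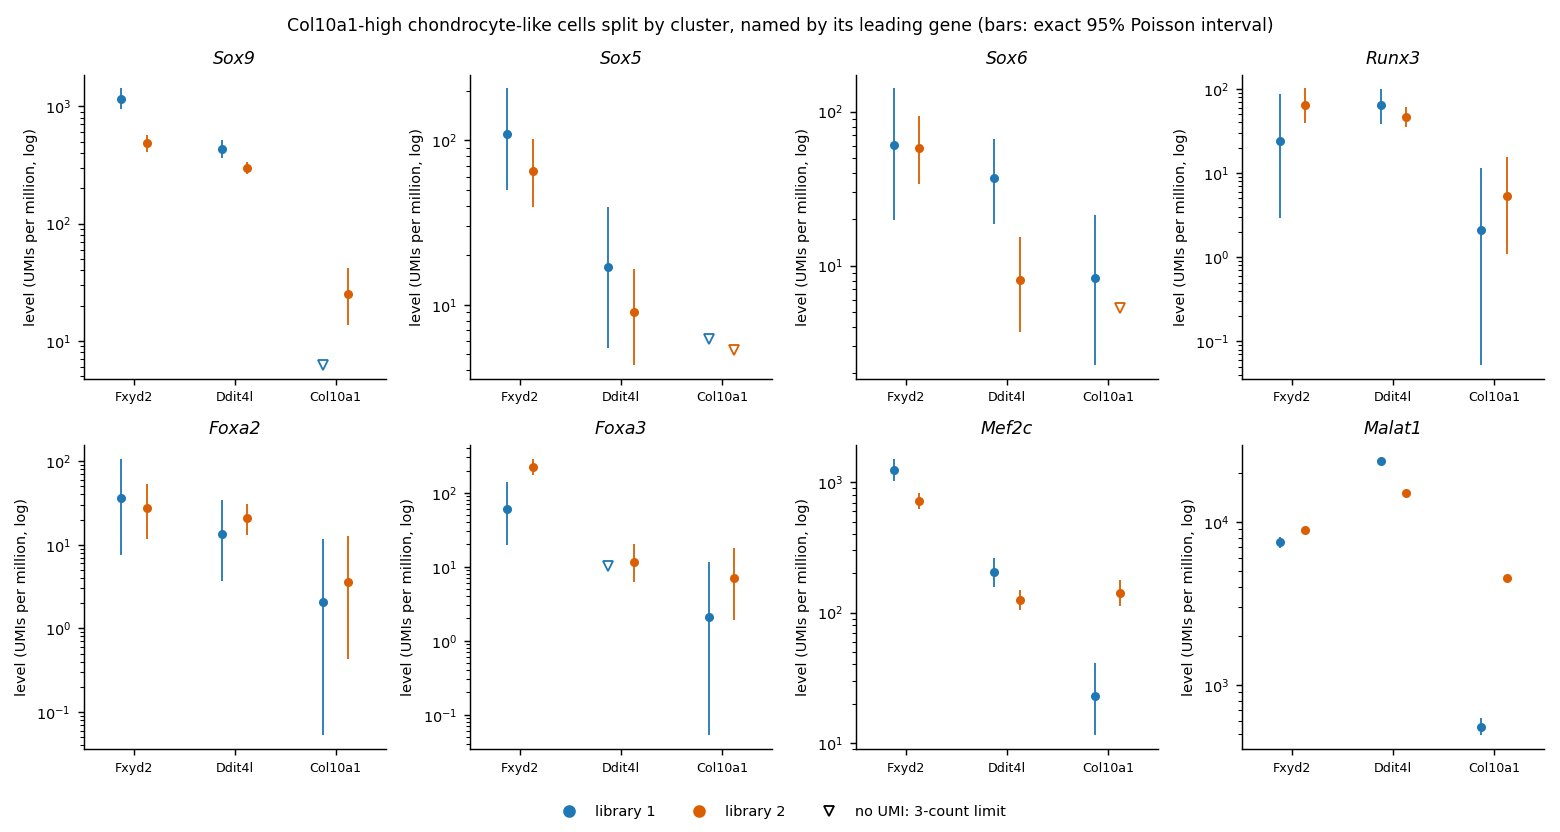
Level of the members in Col10a1-high cells of 3 chondrocyte-like clusters, as CPM on a log axis, with 1 point per library and exact 95% Poisson intervals. Sox9 and Runx3 were low in the cluster led by Col10a1, Mgp, and Rbp4 and high in the cluster led by Ddit4l.

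Genes that work with the members were compared between high and low chondrocytes, where the split used Col10a1 alone. The clusters themselves were named chondrocyte-like by markers that include most of the cartilage matrix genes below, such as Col2a1, Acan, and Cnmd. Both groups were thus chosen in part for these genes, and a lack of calls among them is not independent of that choice. Of 13 cartilage matrix genes known as targets of the SOX trio, all were tested and none was called by edgeR or by DESeq2, with a median log2 difference of -1.19 against 0 over all genes. An unadjusted p under 0.05 was found for 2 of them, Col11a2 (-1.31) and Cnmd (-3.04), picked out here after their values were seen, where 18.9% of all genes had one. Of 12 genes of the hypertrophic programme, 11 were tested. Ibsp, a bone matrix protein, rose from 36.9 and 99.9 CPM to 5345 and 2901 CPM (log2 difference 6.0, adjusted p = 0.0316). Panx3, a channel of prehypertrophic cells, fell from 619 and 212 CPM to 82.7 and 62.6 CPM (-2.37, adjusted p = 0.0416). The other 9 did not pass, and the median of the list was 0.51. DESeq2 called 4 of the list higher (Ibsp, Mmp13, Spp1, and Vegfa) and 1 lower (Panx3), where it called 3.26% of all genes higher and 2.95% lower. By edgeR, Mmp13 (5.26, adjusted p = 0.0768), Spp1 (4.87, adjusted p = 0.0973), and Vegfa (1.60, adjusted p = 0.0822) were higher but did not pass.

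Of 12 signals and cofactors of maturation, 10 were tested and 1 was called. Bmp6, a BMP ligand of hypertrophic cartilage, rose from 7.59 and 6.30 CPM to 75.7 and 90.6 CPM (log2 difference 3.63, adjusted p = 0.0366), and the list had a median of -0.60. DESeq2 called 1 of them higher, Bmp6, and 2 lower, Fgfr3 and Pth1r. Of 14 relatives of the members, 9 were tested and 1 was called. Sox4, a SOX gene of another subgroup, rose from 189 and 40.8 CPM to 1396 and 964 CPM (3.55, adjusted p = 0.0415), opposite in sign to Sox9, Sox5, and Sox6, and the list had a median of 0.19. By edgeR, Runx2 (0.51, adjusted p = 0.543) and Runx1 (1.86, adjusted p = 0.0597) did not pass. Runx1 was 22.8 and 55.2 CPM in low and 129 and 156 CPM in high cells, opposite in direction to Runx3. DESeq2 called 2 of the relatives higher, Runx1 and Sox4, and 0 lower. Over all genes 218 were higher and 163 lower in high cells, and Col10a1, which made the split, differed by 9.47.

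A cluster of 77 cells, all in library 2 and led by Msmp, Prg4, and Cytl1, was left unnamed. Chondrocyte was its best match, with 8 of 12 markers, but none of these was among its 10 leading genes. Its cells are in neither chondrocyte group and in no class tested. Prg4 encodes lubricin of joint surfaces, and the cluster also had Col2a1 at 15022 CPM and Col10a1 at 363 CPM. It had 452 CPM (407 to 499) of Sox9, 67.7 CPM (51.3 to 87.8) of Sox5, and 41.6 CPM (29.0 to 57.9) of Sox6, each between the values of low and high chondrocytes in that library. Runx3 was 7.13 CPM from 6 UMIs, below both chondrocyte groups, and Foxa3 was 21.4 CPM (12.7 to 33.8). With no cells of library 1, these values have no replicate.

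Among blood classes, calls were found for Sox6, Runx3, and Mef2c, while Sox5 was tested and not called in any class. The fit covered 11308 genes and 5 classes, each class against the mean of the other 4. For Sox5, Sox6, Runx3, and Mef2c in these 5 classes, 10 pairs of member and class were called, and the other members fell under the filter. In the whole fit 29.9% of genes were called for B cell-like cells, 13.3% for T/NK cell-like cells, 54.2% for erythroid-like cells, 34.3% for monocyte/macrophage-like cells, and 37.2% for neutrophil-like cells. With shares this large, the count of calls is not read as a trait of the members.

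Sox6, which silences embryonic globin in red cell precursors, was 108 CPM (105 to 111) and 71.5 CPM (63.5 to 80.1) in erythroid-like cells, the highest of all 11 classes. It was higher there than in the other blood classes by 5.48 on the log2 scale (SE 0.53, adjusted p = 1.7e-05). Sox6 met the filter on low counts only with its erythroid-like sums, so the direction of this call was set in advance. The summed erythroid markers were 1149 and 102 CPM in low chondrocytes, against 136050 and 127550 CPM in erythroid-like cells, and their part in the Sox6 level of chondrocytes was not tested. Within the erythroid-like class, Sox6 was 298 and 245 CPM in the cluster led by Hemgn and Slc4a1 and 277 and 218 CPM in that led by Tmcc2 and Bpgm. It was 109 and 62.4 CPM in the cluster led by Hebp1 and 14.3 and 4.93 CPM in that led by Car1. The intervals of the first pair of clusters did not overlap those of the Hebp1 and Car1 clusters. Summed erythroid markers took 318330 and 361900 CPM of the Hemgn cluster and 736330 and 691030 CPM of the Tmcc2 cluster. They shrink the CPM of every other gene there, so the Hemgn and Tmcc2 clusters are not ranked by Sox6. A small cluster led by Hba-a2 had 143 and 12.04 CPM, the latter from 1 UMI, and also B cell markers at a summed 3307 and 2167 CPM. Sox6 was 3.005 and 1.98 CPM in T/NK cell-like cells, 8.25 and 0 CPM in neutrophil-like cells, and 2.10 and 0 CPM in monocyte/macrophage-like cells. In B cell-like cells Sox6 was 2.52 and 1.19 CPM, and its difference of -2.16 missed the threshold (adjusted p = 0.0502). It passed with library as a block (-2.07, adjusted p = 0.0114), as did monocyte/macrophage-like cells (-2.65, adjusted p = 0.0315). Both were compared with a mean that includes the erythroid-like cells through which Sox6 met the filter.

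Runx3, which sets the cytotoxic programme of T and NK cells, was 234 CPM (214 to 257) and 234 CPM (194 to 280) in T/NK cell-like cells. They were higher than the other blood classes by 3.02 on the log2 scale (SE 0.31, adjusted p = 0.00024). Monocyte/macrophage-like cells had 132 and 139 CPM and were also higher (2.07, SE 0.33, adjusted p = 0.00098). B cell-like (21.5 and 8.56 CPM), erythroid-like (17.7 and 11.2 CPM), and neutrophil-like cells (11.2 and 5.76 CPM) were lower, with differences of -1.94, -1.30, and -1.85 and adjusted p of 0.00508, 0.0160, and 0.00610. T/NK markers in low chondrocytes summed to 0 CPM in library 1 and 1.1995 CPM in library 2, with Runx3 there at 98.6 and 77.7 CPM. Monocyte/macrophage markers there summed to 104 and 62.7 CPM, from 1 and 2 of the 7 markers. F13a1 made up 104 and 62.4 CPM of this, and the other marker seen, Csf1r, had 1 UMI in library 2. In high chondrocytes F13a1 was 616 and 344 CPM. The part of either class in the Runx3 level of chondrocytes was not tested.

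Mef2c, which supports B cell growth, was 270 CPM (263 to 278) and 283 CPM (272 to 295) in B cell-like cells and 298 and 337 CPM in T/NK cell-like cells. Both were higher than the other blood classes, by 1.97 (SE 0.16, adjusted p = 5.1e-05) and 2.27 (SE 0.16, adjusted p = 3.5e-05). Erythroid-like cells had 10.7 and 11.7 CPM and were lower by -3.08 (SE 0.23, adjusted p = 1.2e-05), and neutrophil-like cells had 23.5 and 18.0 CPM and were lower by -1.59 (SE 0.21, adjusted p = 0.00027). Monocyte/macrophage-like cells had 101 and 124 CPM, and their difference of 0.43 did not pass (adjusted p = 0.110). Among B cell-like clusters the one led by Ms4a1 and Cd74 had the highest level, 481 CPM (441 to 524) and 538 CPM (488 to 593), and the others lay between 177 and 349 CPM.

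**Figure D5:**
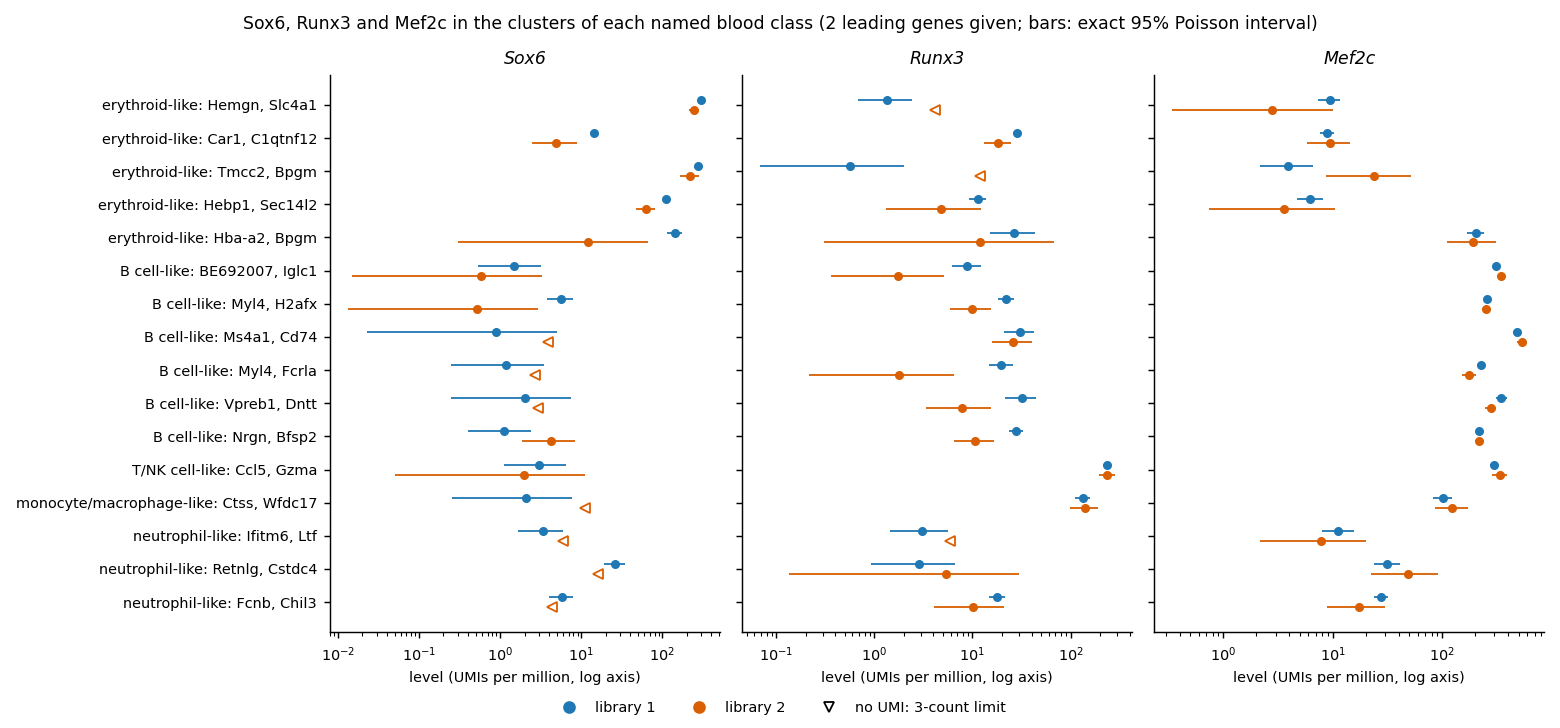
Level of Sox6, Runx3, and Mef2c in the clusters of the blood classes, as CPM on a log axis, with 1 point per library and exact 95% Poisson intervals. Sox6 was highest in the erythroid-like clusters led by Hemgn and by Tmcc2, Runx3 in the T/NK cell-like cluster, and Mef2c in the B cell-like cluster led by Ms4a1.

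The genes whose level followed each member most closely were sought over the 11 named classes, by Pearson correlation of log2(CPM + 10) averaged over the libraries, among 12048 genes. The classes share libraries and differ in depth, so these values are a description. Sox9 was most like Capn6 (r = 0.995), Chadl (0.99), and Pak3 (0.98), and Sox5 was most like Matn4, Rtl3, and Nrk (0.97 to 0.98). Foxa3 was most like Meltf, Smim31, and Ncmap (0.98 to 0.99), and Foxa2 was most like Wnk4, Cytl1, and Cxadr (0.97 to 0.99). Weaker likeness was found for Sox6 with Syt14, Ufsp1, and Tmem56 (0.90 to 0.92), for Runx3 with Kdm6b, Lig3, and Gm17056 (0.84), and for Mef2c with Srp9, Grsf1, and Commd9 (0.79 to 0.88). Among the members themselves, Sox9 was closest to Foxa3 (0.89) and Sox5 (0.87) and far from Sox6 (0.33), Mef2c (0.30), and Runx3 (0.17).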

How the data were processed

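The authors sequenced 10x Chromium libraries and deposited UMI counts per gene and cell barcode for each of the 2 libraries, raw and not pooled. The submitters' processing notes name Cell Ranger 6.1.2 and mm10, and the annotation is not given in the sources used here. UMIs remove PCR copies, and the counts of a class limit its precision, as the Poisson intervals show. The 8 genes, the gene lists, and the marker lists were chosen with earlier results of these data known.

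Cells with at least 500 genes, at least 500 UMIs, and at most 10% mitochondrial UMIs were kept. Seurat 5.3.0 (R 4.3.3) integrated the libraries by canonical correlation (3000 variable genes without the 8 members, 30 anchor dimensions, 15 principal components) and clustered them by the Louvain algorithm at resolution 0.8. Stromal cells were then clustered again. A cluster took the class name with the largest share of its markers found, where at least 3 markers of that class had a log2 fold of at least 1 over all other kept cells and a UMI in at least 20% of its cells, unless its 10 leading genes went against the name or it was shallow with no marker among them. This rule was chosen with the clusters in view. No doublet caller was run. Leaving out stromal cells with UMIs of at least 3 blood marker genes other than hemoglobins, S100a8, and S100a9 (245 and 257 cells) was an alternative. Col10a1-high cells had at least 1000 Col10a1 CPM.

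UMIs were summed per library and class, 6 stromal and 5 blood classes of 10 or more cells per library entered separate fits, and edgeR 4.0.16 (filterByExpr, TMM, quasi-likelihood test with bias adjustment) was used with Benjamini-Hochberg adjustment over all genes at a threshold of 0.05. The test was checked on simulated data. Standard errors are the log2 difference divided by the square root of F. Ratios within a library have exact conditional 95% intervals. For classes with no UMI, 3 UMIs per library were taken as the floor, and ratios to that floor leave out the counting error of the other class. Classes numbered 1 and 2 come from the same libraries, which pairs them, and their deviations from the class means correlated across 15 class pairs with r from 0.0755 to 0.36. Alternatives were RLE size factors, no filter, DESeq2 1.42.0, a library block, other resolutions, cuts, and cell filters, and 1 library at a time. All 8 members were described over the named classes (individually or as a range or count of classes), with the 3 genes most like each (for members with at least 50 UMIs, among genes with at least 200 UMIs) and the genes of each list past the threshold. Leading genes of clusters, Malat1, and the reporters were named after their values were seen.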

Additional observations from a re-analysis of the deposited data

Results flagged for a closer look

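EGFP and tdTomato, reporter sequences in the deposited gene list that are not among the 8 genes compared, had UMIs in libraries labelled WT. EGFP had 6837 UMIs in library 2, in 170 cells, and 0 in library 1, and it was among the 10 leading genes of the cluster led by Col10a1, Mgp, and Rbp4. tdTomato had 1482 UMIs in library 1 and 4627 in library 2. The series has no control samples, and whether cells with these reporters differ in the members was not tested.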

How the results depend on the processing

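Of 449 single values under alternatives, 373 were the same, 14 passed newly, 4 no longer passed, 57 moved, and 1 reversed. A tested value was the same if it kept its direction and its side of the threshold. Values with 1 library left out had no test. They were the same within 1 SE of the main value and moved beyond it, as all 57 did. With 1 library left out, a change of direction was labelled reversed only for a value called in the main fit. For values not called it was labelled moved, or the same within 1 SE, so the count of 1 reversed leaves such changes out. The values with 1 library left out came from summed levels. These were log2 ratios of CPM plus 1, taken to the mean CPM of the other classes, and not fitted contrasts. They thus differ from the main values in measure as well as in library. Against the main count of 1 member in high against low chondrocytes, DESeq2 called 2 (Sox5 and Sox9), edgeR with library as a replicate block called 2 (Sox5 and Foxa3), the fit without bias adjustment, added after seeing the data, called 2, and Louvain resolution 0.4 called 0, with 2 members at an unadjusted p under 0.05. For high chondrocytes against the other stroma, where the main count was 4, leaving out mixed barcodes gave 0 of 2 members tested and leaving out skeletal muscle-like cells gave 2 (Sox9 and Foxa3). Mef2c there turned from 0.14 to -1.01 with mixed barcodes left out, neither past the threshold. The second value was taken against a mean without periosteal fibroblast-like cells, so the 2 values have different comparison classes. The cause of the turn was not tested. With mixed barcodes left out, low chondrocytes and periosteal fibroblast-like cells kept 4 cells each in library 1, so the comparisons of low chondrocytes could not be fitted. Either library alone kept the direction of the 1, 5, 4, and 10 calls, with no test. The calls were made from these same 2 libraries, so this agreement was largely set in advance and adds no support. For Foxa3 against the other stroma, and for Sox6 in erythroid-like cells, the direction was set by the filter on low counts. The Foxa3 call with the block was not independent of that filter either. The 10 calls among blood classes became 10 to 13. The block changed no other call than those of Foxa3 and, in blood, Sox6 and Sox5 in B cell-like cells (Sox5 at 2.84, adjusted p = 0.0475) and Sox6 in monocyte/macrophage-like cells.

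Over all genes, the 218 higher and 163 lower in high chondrocytes became 333 and 301 with DESeq2, 449 and 421 with the block, 347 and 319 without bias adjustment, 330 and 282 without the filter, 85 and 98 at resolution 0.4, 118 and 108 at a cut of 3000 CPM, and 226 and 107 at 300 CPM. Against the other stroma, the 1394 higher and 441 lower genes of low chondrocytes became 1140 and 818 with DESeq2, 1343 and 186 at resolution 0.4, and 928 and 964 without skeletal muscle-like cells. The 1507 and 505 of high chondrocytes became 1115 and 787 with DESeq2, 933 and 830 without skeletal muscle-like cells, and 554 and 183 with mixed barcodes left out, when 4336 genes were tested. The median of all genes moved from 0.18 to 0.02 (low) and from 0.26 to 0.10 (high) with DESeq2. In blood, DESeq2 moved the higher and lower genes from 1985 and 1401 to 1494 and 1862 (B cell), from 3540 and 2589 to 2882 and 3168 (erythroid), and from 1963 and 1917 to 2113 and 1276 (monocyte/macrophage). Depth limits Foxa2 and Nkx3-2 most, with 67 and 11 UMIs in all.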
